A study of Ovis aries with 2 samples.

Results

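The genes described are the axon guidance ligands and receptors of the sheep, in single cells of a native carotid artery and of an implanted cell-free vascular graft. They are the semaphorins and their neuropilin and plexin receptors, the slits and Robo receptors, the netrins and UNC5 receptors, and the ephrins and Eph receptors. They were chosen by gene symbol: 69 of 21890 genes in the count matrices carried a symbol of these families, and 61 of them had at least 10 unique molecular identifiers (UMIs, the count of distinct captured transcripts) over both matrices. The other 8 were EFNA3, EFNB3, EPHA8, NTN3, NTN5, PLXNB3, SLIT1 and UNC5CL. UNC50 is among the 61 only because its symbol has the same first letters as the UNC5 receptors.

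One library came from the native artery and one from the graft, titled H2R5-ATEV, both from animals of 1 to 2 years and both taken out at 12 weeks. The native sample is an aorta by its title and a carotid artery by its other labels. Cells were freed by filling the clamped vessels with collagenase, elastase and protease. The number of animals is not stated, and there was 1 library per tissue, so no test between the tissues was possible and each difference below describes these 2 libraries.

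Axon guidance molecules steer growing nerve fibres, and blood vessels use the same families. Slits are secreted ligands of the Robo receptors, and ROBO4 is the endothelial member. Secreted semaphorins bind neuropilins, which signal through plexins, and neuropilins also serve as co-receptors of vascular endothelial growth factor. Netrins bind UNC5 receptors, and ephrins are membrane-bound ligands of the Eph receptor tyrosine kinases, with EFNB2 known for arterial and EPHB4 for venous endothelium.

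After filtering, 10080 native and 1074 graft cells remained, with medians of 1495.5 and 20832 UMIs per cell, and 4 barcodes occurred in both. The 61 genes took up 0.237% of all UMIs in the artery and 0.249% in the graft. Clusters were named by marker genes, so that "endothelial" below stands for endothelial-like, and likewise for the other classes. Endothelial cells numbered 5166 in the artery and 206 in the graft, mural cells (smooth muscle and pericyte markers) 132 and 192, myeloid cells 1201 and 338, and T or NK cells 1157 and 66. Fibroblasts numbered 2074 and 28, too few in the graft for a comparison. All 12 endothelial, 9 T or NK and, in the graft, 15 mural and 14 myeloid markers were detected in their own class. In the artery 1 mural and 1 myeloid marker were at 0. The 2 libraries shared few clusters, since native endothelial cells fell into clusters 0, 2, 3, 6 and 8 and graft endothelial cells mainly into clusters 18 and 22. The axon guidance genes took no part in the clustering. Levels are UMIs summed over a class and scaled to a total of 1000000 (CPM), with 95% intervals that cover counting error only.

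Most of these genes had their highest level in cells of the vessel wall in both libraries. Of 59 genes with enough UMIs in the artery, 19 were highest in mural cells, 16 in endothelial cells, 14 in fibroblasts, 5 in myeloid cells, 4 in B or plasma cells and 1 in T or NK cells. In the graft, 24 of 59 were highest in mural cells, 21 in endothelial cells, 7 in myeloid cells, 5 in barcodes rich in osteoclast genes and 2 in T or NK cells. Of 36 genes highest in a class that was compared in both libraries, 25 kept the same class. The 11 others included NTN4 and EPHA2, both highest in native mural and in graft endothelial cells. NRP1, also among them, was highest in graft myeloid cells. In the artery its mural and myeloid levels, 196 and 182 CPM, had overlapping intervals. The highest class was separate from the second by its interval for 8 of the 19 native mural, 10 of the 16 native endothelial and 9 of the 14 native fibroblast genes. In the graft it was for 19 of the 24 mural and 16 of the 21 endothelial genes. Such counts over all genes are not given here.

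**Figure D1:**
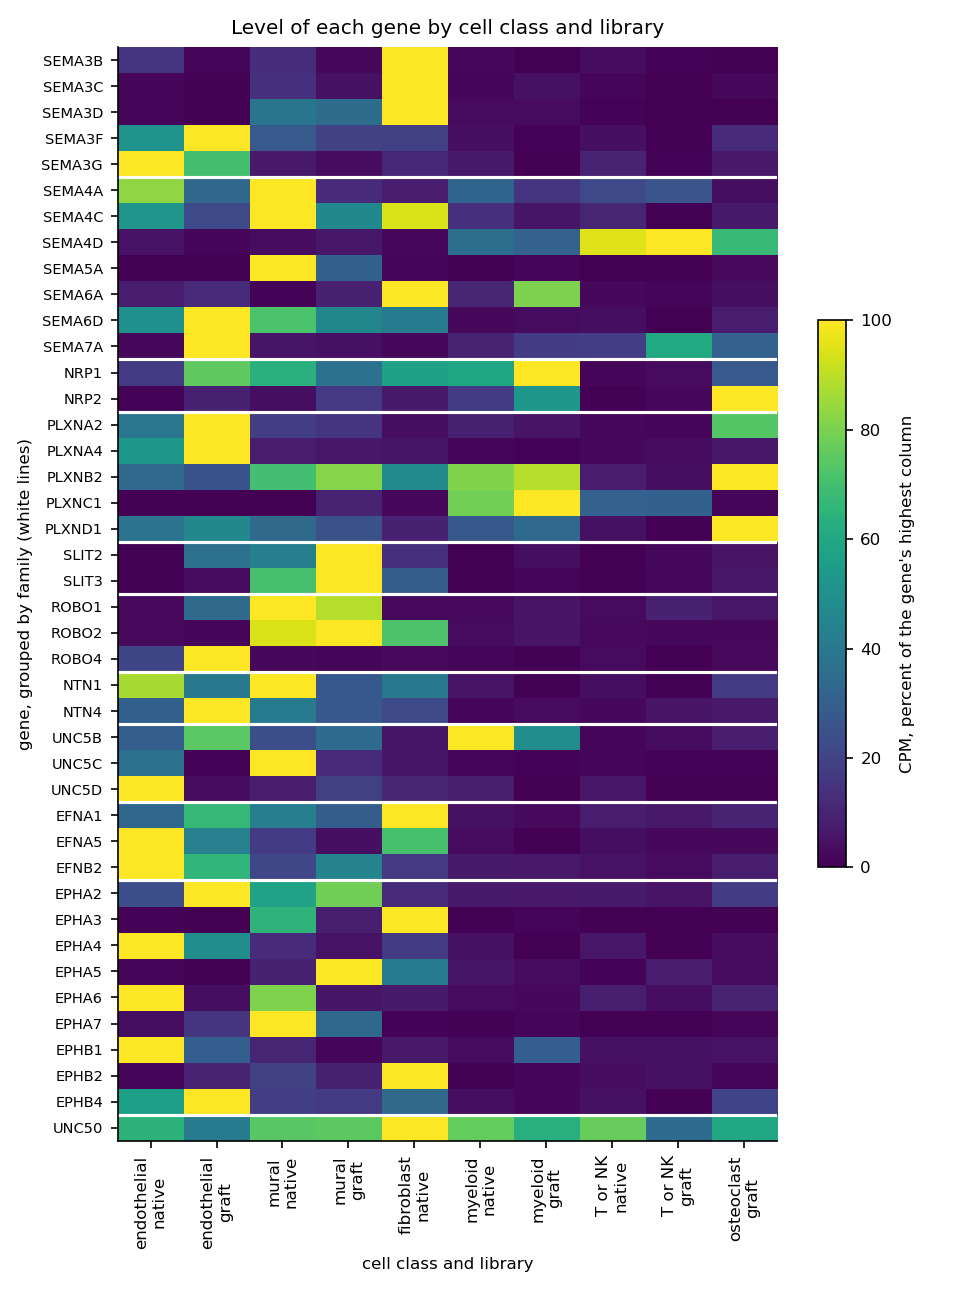
Level of the 42 genes that reached 20 CPM and 30 UMIs, one row per gene and one column per cell class and library, as a percent of that gene's highest column (the 34 native B or plasma cells are not drawn). Among the columns drawn, SEMA3C peaks in native fibroblasts, ROBO4 and SEMA7A in graft endothelial cells, SLIT2 and SLIT3 in graft mural cells and SEMA4D in T or NK cells.

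A gene was called different where its log2 ratio between the libraries, after adding 5 CPM, was at least 1 in size (2-fold), among genes with at least 10 UMIs in the class. Endothelial cells had the most calls: of 56 genes tested, 13 were higher in the graft, where 7.34% of all 15040 genes were, and 7 were lower, where 5.96% of all genes were. In mural cells 7 of 56 were higher (background 9.1%) and 11 were lower (background 7.79%). In myeloid cells 6 of 54 were higher (background 4.77%) and 4 lower (background 3.28%), and in T or NK cells 3 of 34 were higher (background 2.92%) and 4 lower (background 7.08%). Median log2 ratios were −0.06 in endothelial cells, −0.16 in mural cells, −0.08 in myeloid cells and −0.32 in T or NK cells, beside −0.03, 0.01, 0.01 and −0.07 over all genes. The set as a whole therefore did not move in 1 direction, since each class had calls both ways. The T or NK median lay furthest from that of all genes, with an interval of −0.57 to −0.0084 that holds their −0.07. That interval comes from the ranks of the 34 genes tested. It covers neither counting error nor variation between libraries. Single families could move 1 way. In endothelial cells 2 of 2 neuropilins, 2 of 2 slits and 3 of 4 Robo receptors were higher and 0 lower. Eph receptors had 2 higher and 2 lower there, UNC5 receptors 1 and 2, and membrane semaphorins 1 and 1. Among the calls in the 1-way families, SLIT3 lay below 0.25 times its level in other cells, and ROBO3 reached only 7.66 CPM in the graft. NRP2 and ROBO1 lay above the native clusters in graft cluster 18 but not in cluster 22. Of the 60 genes tested in any class, 27 were called in none, 17 in 1 class and 16 in at least 2. The same counts over all genes are not given here, so these numbers do not set the 60 apart from other genes.

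**Figure D2:**
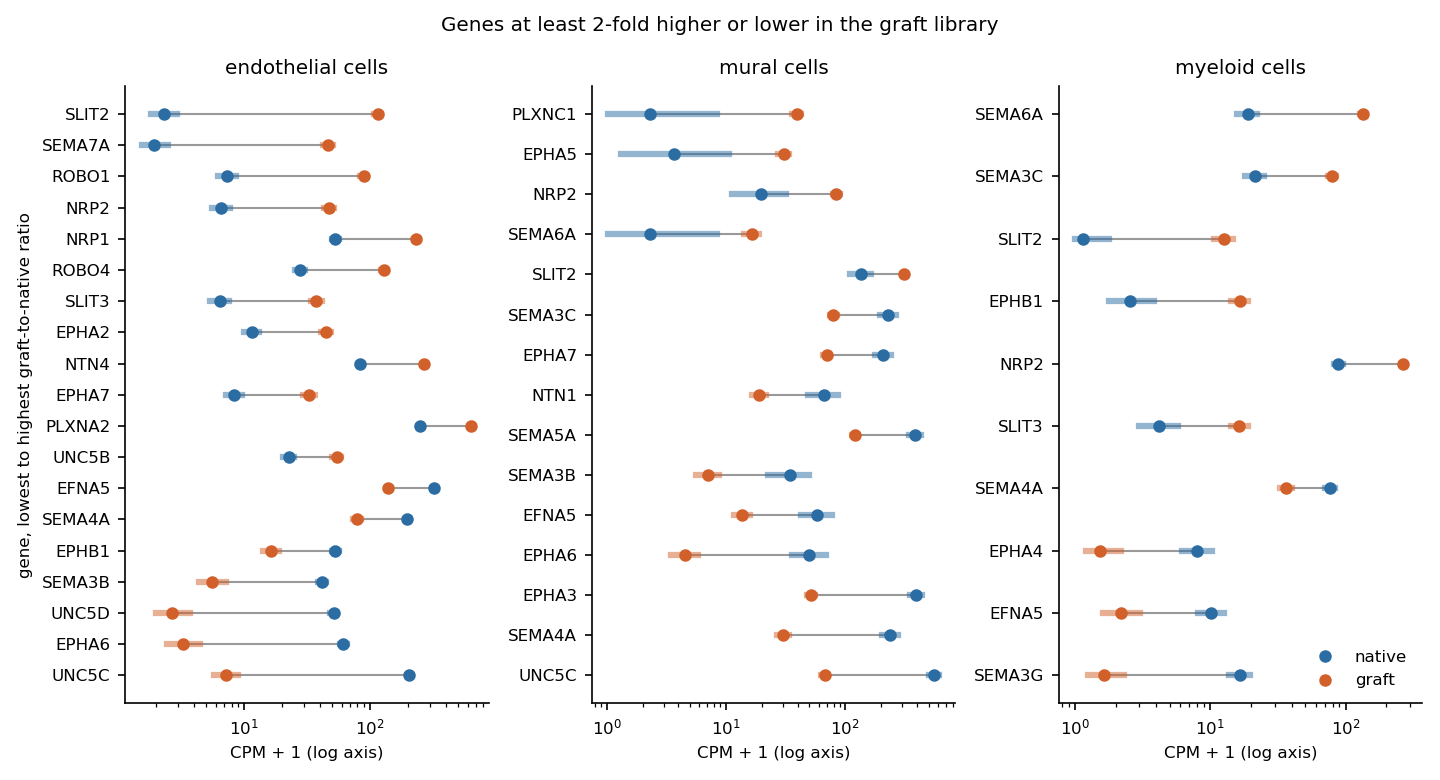
Native (blue) and graft (orange) levels of the genes at least 2-fold apart, in endothelial, mural and myeloid cells, as CPM + 1 on a log axis, with bars for 95% Poisson intervals. SLIT2 at the top of the endothelial panel goes from 1.32 to 115 CPM and UNC5C at its foot from 203 to 6.25 CPM.

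The slits were among the largest differences. In endothelial cells SLIT2 gave 24 UMIs in the artery, or 1.32 CPM (0.848 to 1.97), and 1136 UMIs in the graft, or 115 CPM (108 to 121), an 86.7-fold difference (interval 58.0 to 136). Its log2 ratio of 4.24 ranged from 3.70 to 5.64 over the alternatives tried. Native endothelial cells were thus nearly without SLIT2 transcripts, and graft endothelial cells were not. All other cells held SLIT2 at 21.3 CPM in the artery and 145 CPM in the graft, so it was higher there in the graft too. Graft endothelial cells lay below the other cells of their library, and the part of free RNA was not tested. After each cell was thinned to 1000 UMIs, 4 of 3517 native endothelial cells (0.114%) and 15 of 200 graft cells (7.50%, exact interval 4.26 to 12.1) held a SLIT2 UMI. Unthinned shares were 0.465% and 53.9%, at median depths of 1792 and 33613.5 UMIs, and thinning left out the shallower of the 5166 and 206 cells. In myeloid cells, where SLIT2 lay below 0.25 times its level in other cells, the thinned shares were 0.148% and 0.893%, at median depths of 1216 and 27152.5 UMIs.

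Mural cells carried both slits in both libraries. SLIT2 stood at 134 CPM in native and 310.1 CPM in graft mural cells, 2.32-fold higher in the graft (interval 1.90 to 2.85). SLIT3 stood at 842 CPM in native and 1189.7 CPM in graft mural cells, a 1.41-fold difference (1.30 to 1.53) that was not called. SLIT3 was also present in native fibroblasts, at 350.1 CPM. In graft endothelial cells SLIT3 reached 36.7 CPM against 5.45 CPM in the artery, but both lay below 0.25 times the level in all other cells of the library (525 and 169 CPM). At such levels, taken in the library where the gene is higher, free RNA and expression cannot be told apart. The same was true of the slit calls in myeloid cells and of SLIT3 in T or NK cells. Graft endothelial cells gave 1136 SLIT2 and 364 SLIT3 UMIs, and graft mural cells gave 3346 and 12835. The part of mural RNA in the endothelial sums was not tested. Summed mural markers in endothelial cells were 349 CPM in the artery and 708 CPM in the graft, with 2 of 15 at 0 in each, and their part in the SLIT2 difference was not tested.

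The Robo receptors split by cell class. ROBO4, the endothelial receptor, stood at 27.0 CPM in native and 129 CPM in graft endothelial cells, 4.77-fold higher (4.29 to 5.30), and at 2.95 and 1.22 CPM in the other cells of each library. ROBO1, a broad slit receptor, stood at 6.33 CPM in native and 88.5 CPM in graft endothelial cells, 14.0-fold higher (11.5 to 17.1). In all other cells it stood at 15.3 CPM in the artery and 108 CPM in the graft. Mural cells held ROBO1 at 257 and 228 CPM and ROBO2, its close relative, at 109 and 115 CPM, with neither called. Mural cells of both libraries thus had both receptors. ROBO1 was also called higher in T or NK cells, at 7.54 and 23.2 CPM, the graft level lying below 0.25 times that in other cells. Within the graft mural cells ROBO1 stood at 119.7 CPM in cluster 19 and 535 CPM in cluster 20, and ROBO2 at 44.1 and 315 CPM. SLIT3 went the other way, at 1482 CPM in cluster 19 and 381 CPM in cluster 20. Cluster 19 was led by contractile genes such as ACTG2, ACTA2 and CNN1, and cluster 20 by the matrix metalloproteinases MMP1, MMP13 and MMP3. Each of these clusters held 94 graft cells. Graft mural cells numbered 97 with each library clustered by itself and 103 without doublet removal, in place of 192. Which of these clusters kept the mural name there was not tested. The graft mural class levels of ROBO1 and ROBO2 thus hold for the main naming.

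**Figure D3:**
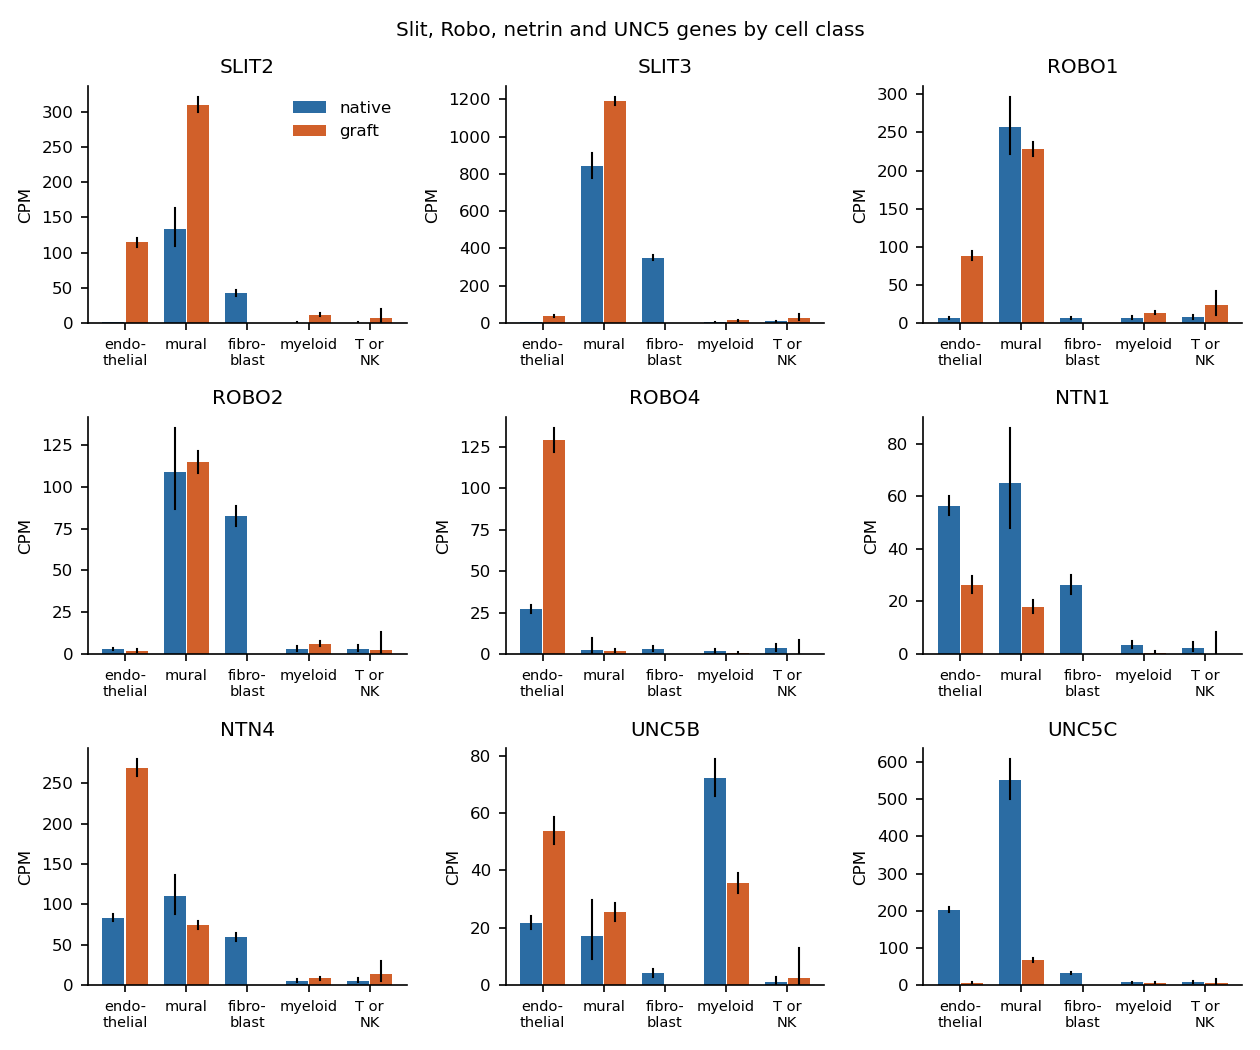
Levels of 9 slit, Robo, netrin and UNC5 genes in 5 cell classes, in CPM on linear axes that start at 0 and differ between panels, with 95% Poisson intervals. Graft fibroblasts, of which there were 28, are not drawn. UNC5C is lower in graft endothelial and mural cells, while SLIT2, ROBO1, ROBO4 and NTN4 are higher in graft endothelial cells.

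Netrin ligands and UNC5 receptors diverged within endothelial cells. NTN4, a netrin of basement membranes, stood at 83.3 CPM in native and 269.5 CPM in graft endothelial cells, 3.24-fold higher (3.04 to 3.45). NTN1, the classical secreted netrin, stood at 56.5 and 26.3 CPM there, short of a call with a log2 ratio of −0.97, and at 65.0 and 17.9 CPM in mural cells, where it was called 3.63-fold lower in the graft (2.60 to 4.99). NTN4 in mural cells was not called, at 110.1 and 74.4 CPM. NTN4 was thus called in endothelial cells and in none of the other 3 classes, with no test of the difference between classes.

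UNC5B, the UNC5 receptor best known from endothelium, stood at 21.7 CPM in native and 53.6 CPM in graft endothelial cells, 2.47-fold higher (2.17 to 2.82). It was no longer called when cells were thinned to 1000 UMIs, with a log2 ratio of 0.22 in place of 1.14. UNC5C had the lowest log2 ratio of the genes tested in endothelial cells, at −4.21. It gave 3686 UMIs, or 203 CPM (196 to 209.6), in native endothelial cells and 62 UMIs, or 6.25 CPM (4.79 to 8.01), in the graft, 32.5-fold lower (25.3 to 42.4). The log2 ratio ranged from −5.19 to −2.04 over the alternatives, the latter with equal weight for each cell. In mural cells it stood at 552 and 66.4 CPM, 8.31-fold lower in the graft (7.35 to 9.39). UNC5D stood at 50.9 and 1.71 CPM in endothelial cells, 29.7-fold lower (18.5 to 51.2). With UNC5B up and UNC5C and UNC5D down, 3 of the 3 UNC5 receptors tested in endothelial cells were called, and not in 1 direction.

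The remaining UNC5C of graft endothelial cells was concentrated in few cells. Clusters 18 and 22, with 105 and 72 graft cells, gave 5 and 0 UNC5C UMIs, and the 0 allows up to 1.73 CPM by the exact Poisson interval. A set of 25 graft cells fell into cluster 3, otherwise a native cluster of 888 cells, and gave 52 of the 62 UMIs in 8 cells, or 259 CPM, beside 389 CPM in the native cells of that cluster. These 25 cells shared no barcode with the native library and had a median of 7326 UMIs. They also held EFNA5 at 592 CPM, SEMA4A at 627 CPM, PLXNA2 at 1025 CPM and EPHA6 at 29.9 CPM, beside 805, 507, 574 and 123 CPM in the native cells of cluster 3. They held NRP1 at 29.9 CPM and ROBO4 at 44.8 CPM, from 6 and 9 UMIs, beside 265 and 153 CPM in cluster 18. Graft endothelial cells were thus not uniform. Those grouped with native cells lay within 2-fold of them in UNC5C, EFNA5, SEMA4A and PLXNA2, and further below them in EPHA6, which rested on 6 UMIs.

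Among the secreted semaphorins, SEMA3C was a fibroblast gene of the artery at 1727 CPM (1700.1 to 1755) and was lower in graft than in native mural cells, at 78.2 against 229 CPM (2.93-fold, 2.48 to 3.46). SEMA3B, a ligand that signals through neuropilins, stood at 40.8 CPM in native and 4.64 CPM in graft endothelial cells (8.79-fold lower, 6.52 to 12.1) and at 33.2 and 6.02 CPM in mural cells (5.50-fold lower, 3.32 to 8.85). It stood at 263 CPM in native fibroblasts. SEMA3G, an endothelial semaphorin, was not called in endothelial cells, at 211 and 149 CPM, and neither was SEMA3F, at 24.1 and 47.2 CPM. Behind the SEMA3G level were 2 unlike graft clusters, with 50.4 CPM in cluster 18 and 511 CPM in cluster 22, below and above the 109.9 to 246 CPM of the native clusters. SEMA3F also lay higher in cluster 22, at 114 CPM, than in cluster 18, at 28.5 CPM.

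Among the membrane semaphorins, SEMA7A, a lipid-anchored one, gave 17 UMIs in native endothelial cells, or 0.936 CPM, and 453 UMIs in the graft, or 45.7 CPM, 48.8-fold higher (30.1 to 84.5). It also stood at 45.9 CPM in native B or plasma cells, from 12 UMIs. SEMA4A went the opposite way, at 197 and 78.2 CPM in endothelial cells (2.52-fold lower, 2.33 to 2.73), at 236 and 29.1 CPM in mural cells (8.11-fold lower, 6.71 to 9.78) and at 76.0 and 35.2 CPM in myeloid cells (2.16-fold lower, 1.89 to 2.47). It was lower in graft cells of all 3 classes and not called in T or NK cells, at 52.5 and 62.6 CPM. SEMA5A was chiefly found in mural cells, at 383 CPM in native and 119 CPM in graft mural cells (3.23-fold lower, 2.83 to 3.67), but thinning to 1000 UMIs moved its log2 ratio from −1.65 to −0.01. SEMA6A was called higher in myeloid cells, at 17.9 and 134 CPM (7.47-fold, 6.22 to 9.04), and stood at 166 CPM in native fibroblasts. Its call in mural cells, at 1.33 and 15.6 CPM, rested on 1 native UMI, lay below 0.25 times the level in other cells and was lost with equal weight for each cell or with classes from each cell's own markers. SEMA4D, the lymphocyte semaphorin CD100, stood at 161 CPM in native and 169 CPM in graft T or NK cells and differed 1.05-fold (0.814 to 1.34).

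Both neuropilins were higher in graft endothelial cells. NRP1 stood at 52.1 CPM in the artery and 234 CPM in the graft (4.49-fold, 4.16 to 4.84), and NRP2 at 5.62 and 46.7 CPM (8.31-fold, 6.69 to 10.4). All other cells held NRP2 at 46.6 CPM in the artery and 186 CPM in the graft. The NRP2 level of graft endothelial cells thus lay only just above the limit for free RNA used for SLIT3. The part of free RNA in it was not tested. NRP2 was also called higher in mural cells, at 18.6 and 83.4 CPM (4.49-fold, 2.66 to 8.25), and in myeloid cells, at 87.3 and 266 CPM (3.04-fold, 2.79 to 3.33). It thus passed the 2-fold limit in each of the 3 vessel-wall and myeloid classes. NRP1 was not called in mural cells, at 196 and 117 CPM, or in myeloid cells, at 182 and 309 CPM. In mural cells the NRP2 log2 ratio of 1.91 fell short of a call on thinned cells and with equal weight for each cell, down to 0.31.

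Of the plexins, the signalling receptors beside the neuropilins, few were called. PLXNA2 stood at 249 CPM in native and 633 CPM in graft endothelial cells (2.54-fold, 2.45 to 2.64) and was the only plexin called there, of 8 tested. PLXNA4 stood at 177 and 331 CPM and PLXND1, the plexin best known from endothelium, at 45.4 and 55.6 CPM. PLXNC1, a receptor of SEMA7A, was chiefly a leukocyte gene, at 318 CPM in native and 403 CPM in graft myeloid cells and at 126 and 125 CPM in T or NK cells. Its call in mural cells rested on 1 native UMI, with a ratio of 28.7 and a counting interval from 5.13 to 1137, and its levels of 1.33 and 38.1 CPM lay below 0.25 times those in other cells. None of the 7 plexins tested in myeloid cells was called.

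Ephrins and Eph receptors gave calls in both directions. EFNA5, a lipid-anchored ephrin, stood at 321 CPM in native and 140.0 CPM in graft endothelial cells (2.30-fold lower, 2.17 to 2.44) and at 57.0 and 12.6 CPM in mural cells (4.52-fold lower, 3.13 to 6.42). The arterial ephrin EFNB2 stood at 75.2 and 49.4 CPM in endothelial cells and its venous receptor EPHB4 at 28.1 and 49.8 CPM, and neither was called. Cluster 22 held both at higher levels than cluster 18, with EFNB2 at 134 against 24.7 CPM and EPHB4 at 87.4 against 40.6 CPM. EPHA2, a receptor known from sprouting endothelium, stood at 10.6 and 43.9 CPM (4.15-fold higher, 3.49 to 4.94). EPHA6 stood at 60.7 and 2.32 CPM (26.2-fold lower, 17.4 to 41.5) and EPHB1 at 52.1 and 15.5 CPM (3.36-fold lower, 2.83 to 4.01).

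EPHA3, a receptor of mural cells and fibroblasts here, stood at 389 CPM in native and 50.7 CPM in graft mural cells (7.66-fold lower, 6.63 to 8.85) and at 598 CPM in native fibroblasts. EPHA7 stood at 207 and 68.8 CPM in mural cells (3.01-fold lower, 2.51 to 3.58) and at 7.38 and 31.8 CPM in endothelial cells (a log2 ratio of 1.57). EPHA6 was lower in graft mural cells too, at 49.1 and 3.52 CPM (13.9-fold, 8.62 to 22.5). Against these 3 lower receptors, 1 was higher: EPHA5 gave 2 UMIs in native mural cells, or 2.65 CPM, and 29.5 CPM in the graft, a ratio of 11.1 with an interval from 3.05 to 92.2. The native mural sum of 753978 UMIs makes 1 UMI worth 1.33 CPM, so low native mural levels are coarse.

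Some calls depended on how shallow cells were weighed. In endothelial cells EFNA5, SEMA4A and EPHB1 were no longer 2-fold lower on thinned cells or with equal weight for each cell. Over all alternatives their log2 ratios came no nearer to 0 than −0.27, −0.53 and −0.36. EPHA7 fell short in endothelial cells on thinned cells (0.86) and in mural cells with equal weight or with classes from each cell's own markers (no nearer to 0 than −0.89). SLIT2, SEMA7A, ROBO1, ROBO4, NRP1, NRP2, PLXNA2, NTN4 and EPHA2 stayed at least 2-fold higher in graft endothelial cells under all 13 alternatives, and UNC5C, UNC5D, EPHA6 and SEMA3B at least 2-fold lower.

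Other marker lists moved with the mural comparison. Summed over 11 fibroblast markers, native mural cells held 8017 CPM and graft mural cells 24323 CPM, none of the markers at 0. Summed over 14 myeloid markers they held 163 CPM (6 at 0) and 1520.0 CPM (0 at 0). Their part in the mural differences was not tested. In endothelial cells the fibroblast sum was 1173 and 2063 CPM, and the sum of 4 cell cycle genes was 43.9 and 451 CPM, none at 0, likewise with no test of their part.

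Split by cluster, 19 of the 42 individually described genes had endothelial ranges that did not overlap between the libraries, 13 with both graft clusters above all 5 native ones and 6 below. Over all 9918 genes that reached the same level in some class, 15.1% lay above and 7.5% below. These clusters come from 1 library each and are no replicates. The ranges are of point values without counting intervals, and some gaps were narrow. The highest native and lowest graft cluster stood at 574 and 598 CPM for PLXNA2, 28.3 and 28.5 CPM for SEMA3F and 15.8 and 17.9 CPM for EFNA1. For EPHA4 the lowest native and highest graft cluster stood at 79.8 and 77.1 CPM. The 25 graft endothelial cells of cluster 3 were under the limit of 30 cells and were left out of these ranges. In them the 6 lower genes, UNC5C, UNC5D, EPHA6, EPHA4, SEMA3B and EPHA3, lay within the native ranges. NRP1, EFNA1 and SEMA6D also did, EPHB4 lay below its native range, and the rest of the 13 lay above theirs. In these cells 1 UMI was worth 4.98 CPM. EPHB4 and EPHA3 rested on 1 UMI each, EFNA1 on 2, EPHA2, EPHA7 and SEMA6D on 4 each and SEMA7A on 5. Their places beside the native ranges are thus coarse. SLIT2 ranged from 0 to 2.05 CPM over the native clusters and stood at 103 and 165 CPM in the graft clusters, and SEMA7A ranged from 0 to 1.41 CPM and stood at 40.3 and 67.2 CPM. NRP1, ROBO4, NTN4, UNC5B, EPHA2, EPHA7 and PLXNA2 were also separate, whereas ROBO1 and NRP2 were not. ROBO1 stood at 113 CPM in cluster 18 and 10.3 CPM in cluster 22, and NRP2 at 59.3 and 7.05 CPM. For both genes cluster 18 lay above the native clusters and cluster 22 lay among them. EPHB1 and EFNA5 had the reverse split, at 2.39 and 18.2 CPM in cluster 18 and 59.2 and 527 CPM in cluster 22.

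Native cluster 3 held the highest native levels of UNC5C (389 CPM), EPHA6 (123 CPM), EFNA5 (805 CPM), SEMA4A (507 CPM) and PLXNA2 (574 CPM). Mitochondrial genes gave 6.97% of the UMIs in cluster 3 and 8.33% in cluster 8, the 2 highest shares of the native endothelial clusters. Without both clusters, an alternative chosen after seeing the data, EFNA5 and SEMA4A were no longer 2-fold lower in graft endothelial cells, while UNC5C kept a log2 ratio of −3.84 in place of −4.21.

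**Figure D4:**
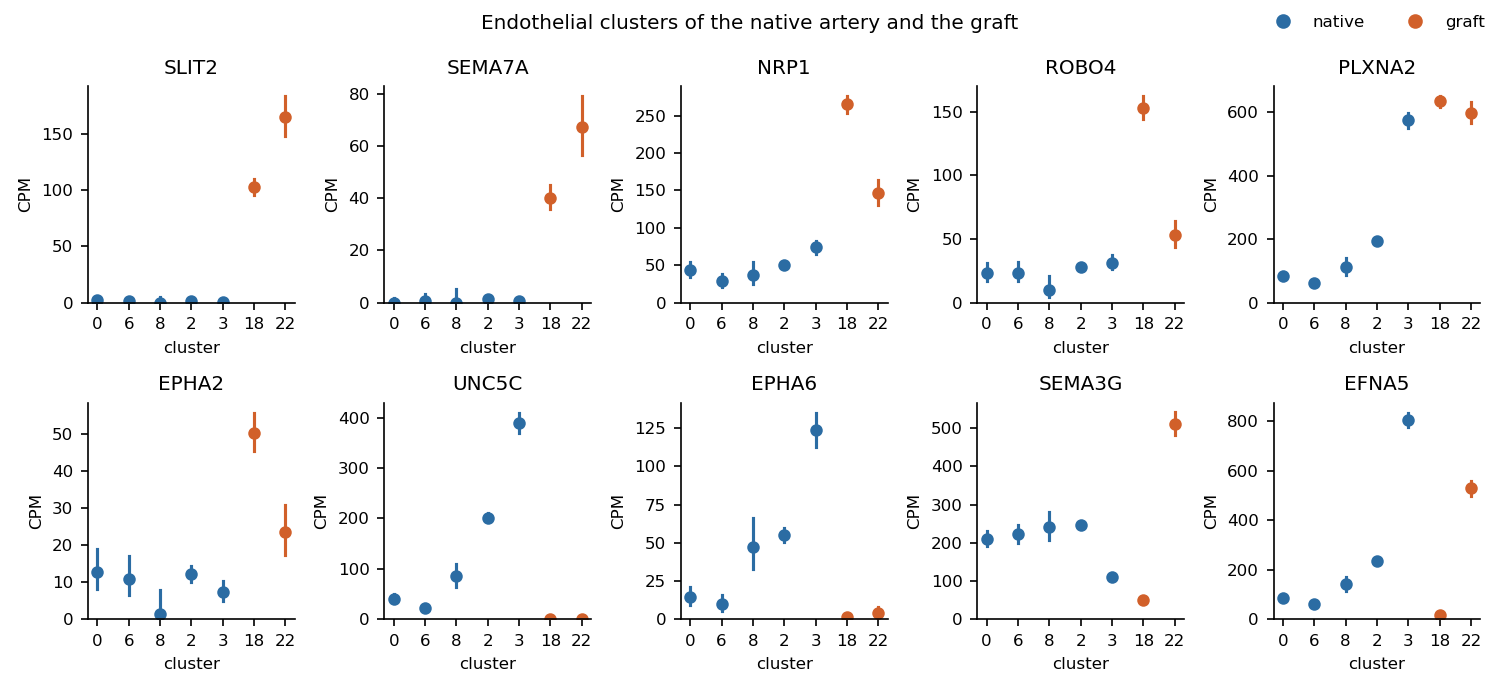
Levels of 10 genes in the 5 native (blue) and 2 graft (orange) endothelial clusters, in CPM on linear axes from 0 that differ between panels, with 95% Poisson intervals. SLIT2, SEMA7A, NRP1, ROBO4 and EPHA2 lie higher in both graft clusters than in any native one, and SEMA3G and EFNA5 differ between the graft clusters. The 25 graft cells of cluster 3 are not drawn.

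In myeloid cells the calls narrowed once the level in other cells was considered. SLIT2, SLIT3, SEMA3G, EFNA5 and EPHA4 were called but lay below 0.25 times their level in other cells. That left SEMA6A, NRP2, SEMA3C and EPHB1 higher and SEMA4A lower. Of these, SEMA6A stayed at least 2-fold higher under all 12 alternatives. NRP2 fell to a log2 ratio of 0.42 with 4000 variable genes, SEMA4A came as near to 0 as −0.28, and SEMA3C and EPHB1 did not keep their direction, reaching −0.34 with equal weight for each cell and −0.0043 with 4000 variable genes. With 4000 variable genes only 77 graft cells were named myeloid, in place of 338, and 481 graft cells were unnamed, in place of 31. That setting thus compared a much smaller graft class. SEMA3C stood at 20.3 and 78.7 CPM (3.87-fold, 3.24 to 4.66) beside 475 and 78.9 CPM in other cells, and EPHB1 at 1.57 and 15.6 CPM (9.91-fold, 5.40 to 20.2). UNC5B was not called in myeloid cells, at 72.1 and 35.4 CPM, a direction opposite to that in endothelial cells. The graft myeloid cells were mostly 259 cells of cluster 12 and the native ones 796 shallow cells of cluster 4 and 392 of cluster 7. In the graft myeloid cells the 6 osteoclast markers summed to 2270.2 CPM, against 639.7 CPM (2 at 0) in native ones, and their part in these differences was not tested.

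A cluster of 199 graft barcodes, with a median of 654 UMIs, had all 6 osteoclast markers raised, summing to 39877 CPM. It held NRP2 at 503 CPM, PLXNA2 at 466 CPM, PLXND1 at 119.5 CPM and SEMA4D at 114 CPM, the last a signal known from osteoclasts. These came from 18, 30, 19 and 12 barcodes with a UMI, and 1 barcode gave 33.3%, 27.3%, 32.4% and 28.7% of them, so they describe few cells. The 19 native barcodes of the cluster had 4 of the 6 markers at 0 and were not compared.

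T or NK cells had few calls, and most were of genes with a higher level in other cells. ROBO1, SLIT3, EPHA4, PLXND1, SEMA3C and SEMA3G were called but lay below 0.25 times their level in other cells, with 0 graft UMIs for EPHA4 and PLXND1, where 3 UMIs would be 6.96 CPM. The remaining call was SEMA7A, at 8.27 and 27.8 CPM (3.37-fold higher, 1.59 to 6.66), from 34 and 12 UMIs.

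Of 61 genes, 19 did not reach 20 CPM with at least 30 UMIs in any class of at least 30 cells, among them SEMA3A, SEMA3E, PLXNA1, PLXNB1, ROBO3, EFNB1 and UNC5A. Calls among these 19 were ROBO3 in endothelial cells (higher), and SEMA4F and SEMA5B (higher) and SEMA4B (lower) in mural cells. SEMA4F and SEMA5B rested on 1 native UMI each.

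Other genes of the pathway, from a list of co-receptors and signalling proteins, had 74 members tested in endothelial cells, of which 14 were higher and 5 lower in the graft. In mural cells 16 of 73 were higher and 3 lower, in myeloid cells 7 of 71 were higher and 2 lower, and in T or NK cells 3 of 57 were higher and 5 lower. The backgrounds over all genes were 7.34% higher and 5.96% lower in endothelial cells, 9.1% and 7.79% in mural cells, 4.77% and 3.28% in myeloid cells, and 2.92% and 7.08% in T or NK cells. The counts of lower genes in endothelial, myeloid and T or NK cells were thus near the background. MYO10, a myosin that carries netrin receptors to filopodia, stood at 1.05 CPM in native and 329 CPM in graft endothelial cells (314-fold, 201 to 522). ABL2, a kinase in Robo signalling, stood at 35.5 and 493 CPM there, at 79.6 and 473 CPM in mural cells and at 243 and 582 CPM in myeloid cells, and so was higher in graft cells of all 3 classes. SRGAP1, a GTPase activator that binds Robo receptors, stood at 9.14 and 77.3 CPM in endothelial cells (8.46-fold, 7.15 to 10.1). In mural cells VEGFC, a ligand whose receptors pair with NRP2, stood at 6.63 and 102 CPM (15.4-fold, 6.57 to 47.5), and ABLIM1, an actin-binding protein, was lower at 374 and 49.5 CPM (7.56-fold, 6.52 to 8.75). FLRT2, a ligand of UNC5 receptors, stood at 20.6 and 67.3 CPM in myeloid cells (3.27-fold, 2.73 to 3.94).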

How the data were processed

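Single cells of 1 native sheep carotid artery and 1 graft were profiled by droplet-based RNA sequencing. Each deposited matrix holds raw UMI counts (whole numbers), and Cell Ranger 7.2.0 is the tool in the file headers. Seurat 5.0.0, R 4.3.3 and bcl2fastq 2.20.0.422 stand in the submitters' processing notes without a role. The build of the genome is not given in the sources used here. The native matrix held 11371 barcodes and 43183715 UMIs and the graft matrix 1229 barcodes and 36238351 UMIs. Genes without a symbol held 22.7% and 18.8% of the UMIs.

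Barcodes with fewer than 200 genes or over 20% mitochondrial UMIs (13 genes) were removed, 266 native and 143 graft. Scrublet marked 0 and 2 barcodes (0.163% of the graft) at its automatic threshold, which is too few to have worked, so the highest scores were removed at 0.8% per 1000 barcodes (1034 and 12). Cells of both libraries were clustered together in scanpy 1.11.5 (2000 variable genes without the axon guidance genes, 30 components, 15 neighbours, Leiden resolution 1). Clusters were named from marker lists with at least 3 raised markers. The naming limits, and the merging of smooth muscle with pericyte and of macrophage with neutrophil lists, were chosen with the clusters in view. Genes and lists were chosen with earlier results of these data known.

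UMIs were summed per class and library with at least 30 cells and scaled to 1000000. Intervals are exact (Poisson for levels, conditional binomial for ratios, Clopper-Pearson for shares, ranks of the genes for medians) at 95%. A gene is described by itself from 20 CPM and 30 UMIs in 1 class, and pathway genes were named by the 6 largest log2 ratios per class from 50 CPM, of which a selection is given. Shares of cells were compared after thinning to 1000 UMIs, and 3785 cells of the artery and 162 of the graft were too shallow for this. No test was made, since each group has 1 library. On simulated counts, 100 of 100 genes changed 4-fold were called in endothelial, mural and myeloid cells and 99 in T or NK cells. Of 100 changed 2.5-fold, 91, 80, 91 and 79 were called, and 0, 52, 0 and 315 of the unchanged genes (14792, 14190, 14331 and 11905) were called in that order.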

Additional observations from a re-analysis of the deposited data

Results flagged for a closer look

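A set of 3 genes was at least 2-fold higher in the graft in 1 cell class and at least 2-fold lower in another. With 1 library per tissue the difference between classes was not tested. EPHA7 had a log2 ratio of graft to native of 1.57 in endothelial cells and −1.52 in mural cells. EPHB1 had −1.48 in endothelial cells and 1.65 in myeloid cells. SEMA3C had −1.49 in mural cells, 1.72 in myeloid cells and −1.86 in T or NK cells, where it lay below 0.25 times its level in other cells and rested on 1 graft UMI. The myeloid values of EPHB1 and SEMA3C did not keep their direction under every alternative.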

How the results depend on the processing

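Of the described genes called in the main setting, 19 of 19 in endothelial cells and 15 of 15 in mural cells kept their direction under every alternative that gave a value, and 14 and 11 stayed at least 2-fold apart. In myeloid cells 8 of 10 kept their direction and 2 stayed 2-fold apart, and in T or NK cells 6 of 7 and 1. The reversals were EPHB1 in myeloid cells (log2 ratio −0.0043 with 4000 variable genes), SEMA3C in myeloid cells (−0.11 on thinned cells, −0.34 with equal weight for each cell) and SEMA3G in T or NK cells (0.036 with classes from each cell's own markers). Class sizes also changed with the setting. Graft myeloid cells numbered 77 with 4000 variable genes, in place of 338. Graft mural cells numbered 97 with each library clustered by itself and 103 without doublet removal, in place of 192. The causes were not tested.

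With 1 CPM added in place of 5, the genes lower in the graft numbered 15 in endothelial, 10 in myeloid and 12 in T or NK cells, and 5 were higher in T or NK cells. Thinned to 1000 UMIs, mural cells had 3 higher and 6 lower (median −0.50), myeloid cells 2 lower, and T or NK cells 0 higher (median −1.05). With equal weight for each cell, 13 were lower in myeloid cells (median −0.22), and 1 was higher and 16 lower in T or NK cells (median −0.95). In cells of at least 5000 UMIs, 2 were lower in myeloid cells, and 5 higher and 0 lower in T or NK cells. With each library clustered by itself 9 were lower in myeloid and 5 higher in T or NK cells, without doublet removal 2 were lower in myeloid and 7 in T or NK cells, and with 4000 variable genes 2 were lower in myeloid cells. Of genes by highest class, native fibroblasts had 9 (equal weight), native myeloid cells 8 (own markers) and 3 (thinned), and native B or plasma cells 2 (thinned). Native T or NK cells had 2 (resolution 0.5, separate clustering, equal weight or cells of at least 5000 UMIs) and 3 (own markers). Thinned graft cells had 11 in mural, 1 in T or NK and 1 in osteoclast-gene barcodes, and graft T or NK cells 4 (own markers). The other 217 summary values stayed within 1.5 times the reported count or within the interval of the median. The 2 added alternatives, without UNC50 and without native endothelial clusters 3 and 8, were chosen after seeing the data.

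No paired analysis was possible because each tissue has 1 library. Depth limits the native mural class (753978 UMIs) and graft T or NK cells (431120 UMIs), and leaving out a library leaves no comparison.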
